A study of Mus musculus with 6 samples.

Results

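The genes described here encode proteins that join endothelial cells to each other: the cadherins Cdh5 and Cdh2, the immunoglobulin-type surface proteins Pecam1 and Esam, the tight junction membrane proteins Cldn5, Ocln and Marveld2, and the plaque proteins Tjp1 and Cgn. They were taken by name, as non-control spots whose annotation names one of the 9 genes. The rule uses no measured value, but the genes were chosen with earlier results of these data known. All 9 genes had a probe, giving 11 of the 55681 probes and 12 of the 59305 non-control spots on each array. Cdh2 and Ocln each had 2 probes, Pecam1 had 1 probe printed at 2 places, and each of the others had a single spot.

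RNA came from 1G11-mock and 1G11-SOD3 cells, lines of mouse microvascular endothelium of strain C57BL/6NCrLBR, the second of which overexpresses SOD3, the extracellular superoxide dismutase. Before RNA was taken, both had spent 6 h in N202.1A-conditioned medium, N202.1A being mammary cancer cells of the mouse, so that no array shows cells without that medium, and each line was measured on 3 single-color Agilent arrays of 1 slide. The study describes the arrays of a line as independent experiments, whereas the labels number them only, and whether a line is a single clone is not given in the sources used here. The comparison asks how the RNA of junction genes differed between the lines.

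Endothelial cells are held together by adherens junctions, in which VE-cadherin (Cdh5) binds its like on the next cell and is tied to actin through catenins, and by tight junctions, in which claudins and occludin seal the space between cells and are anchored by plaque proteins such as ZO-1 (Tjp1) and cingulin (Cgn). N-cadherin (Cdh2) is also made by endothelial cells, where it is known for contacts with pericytes, and it is common in mesenchymal cells. PECAM-1 and ESAM sit at the cell border and take part in the passage of leukocytes.

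Each value rests on a probe of 60 bases, and it is the hybridization of that stretch, and of no other part of the transcript, that was measured. The first 30 bases of the probes, 5′ to 3′ in lower case, are shown to identify what each spot could detect, and none is shown for Cdh2.
Cdh5: acttattataagactctagttctcacagac
Pecam1: ccccagaacatggatgtagaatacacagaa
Esam: gttgtagcagggggataggaaagacatttt
Cldn5: tcctactgagatcctgggggcactagatgc
Ocln, probe 1: aaatggcttttgataattgactgggctgaa
Ocln, probe 2: cccaatttggtctgttttagctgaaaatgt
Marveld2: cctggcaatactcttgcagactaacttttg
Tjp1: cagcacgatttctgtttagataatacacca
Cgn: catgatttaaaagaagatattctgcagatc
The array annotation places these probes at chr8:106668159-106668218 (Cdh5), chr11:106540864-106540923 (Pecam1), chr9:37345795-37345854 (Esam), chr16:18778046-18778105 (Cldn5), chr13:101268529-101268588 and chr13:101267384-101267443 (Ocln, probes 1 and 2), chr13:101366266-101366325 (Marveld2), chr7:72441126-72441185 (Tjp1) and chr3:94564031-94564090 (Cgn). The build of these positions is not given in the sources used here, and the part of the gene they cover was not analysed here. The G and C content of the probes ran from 35% (Cdh5, Esam, Cgn and others) to 55% (Cldn5).

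Signal over background divided the genes before any comparison of the lines. The scanner software marked 5 of the 11 probes as well above background on all 6 arrays, and these belonged to Cdh2 (both probes), Tjp1, Cgn and Esam. On no array was a probe of Cdh5, Ocln or Marveld2 well above background. Pecam1 and Cldn5 lay between, with Pecam1 above background on 2 of 3 arrays of each line and Cldn5 on 1G11-mock replicate 3 only. Of the genes most specific to endothelium in this group, Cdh5 and Cldn5 thus had only a bound in most samples, as the plot of all values by array shows.

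**Figure D1:**
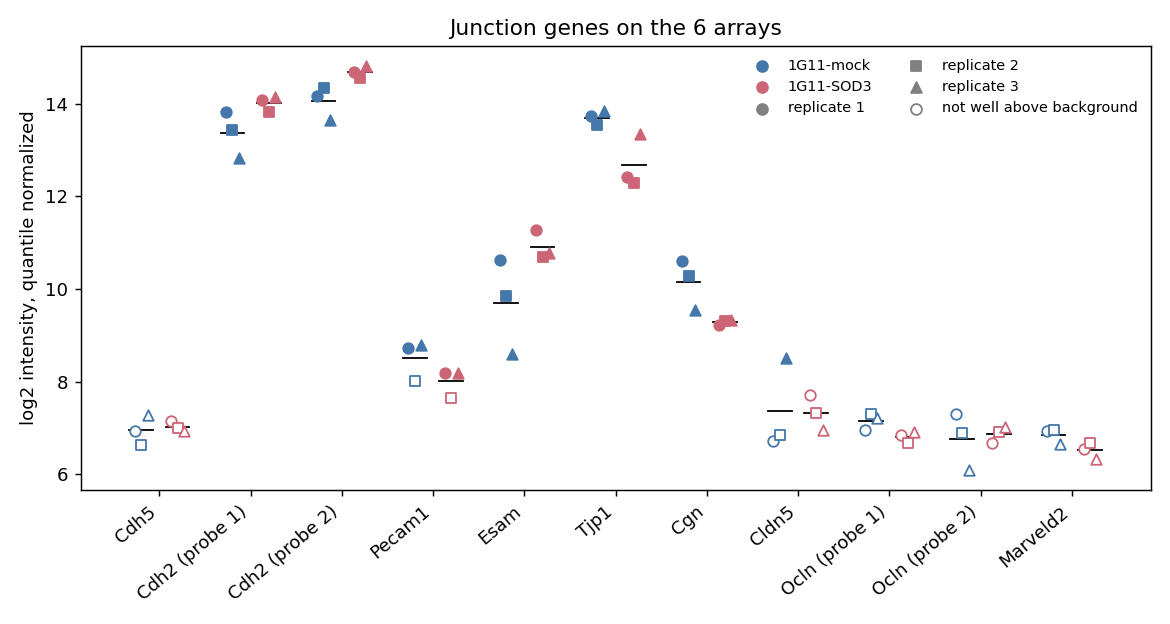
Normalized log2 intensity of the 11 probes (y axis) on each of the 6 arrays, by probe (x axis). Blue is 1G11-mock and red is 1G11-SOD3, symbols mark replicates, open symbols mark values not well above background, and black lines are means of 3 arrays. Cdh2, Tjp1, Cgn and Esam are filled on all arrays, whereas Cdh5, Ocln and Marveld2 are open on all.

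The unnormalized intensities of the dim spots were close to those of the 308 negative control spots of the same array, whose median was between 220.5 and 318. The Cdh5 spot read 243 to 382, brighter than between 57.1% and 95.8% of the negative controls, and passed their 95th percentile on 1 array. The spots of Marveld2 (218 to 309) and of Ocln (229 to 362 and 237 to 274) passed it on none. Cldn5 read 223 to 531 and passed it on 2 arrays. The 2 Pecam1 spots read 305 to 561 and 331 to 597 and passed it on all 6. Some negative controls were still as bright as a Pecam1 spot, which on 1G11-SOD3 replicate 2 exceeded 96.1% of them at row 183. A reading among the negative controls is a limit of the probe and array, and does not show that the transcript was missing from the cells.

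**Figure D2:**
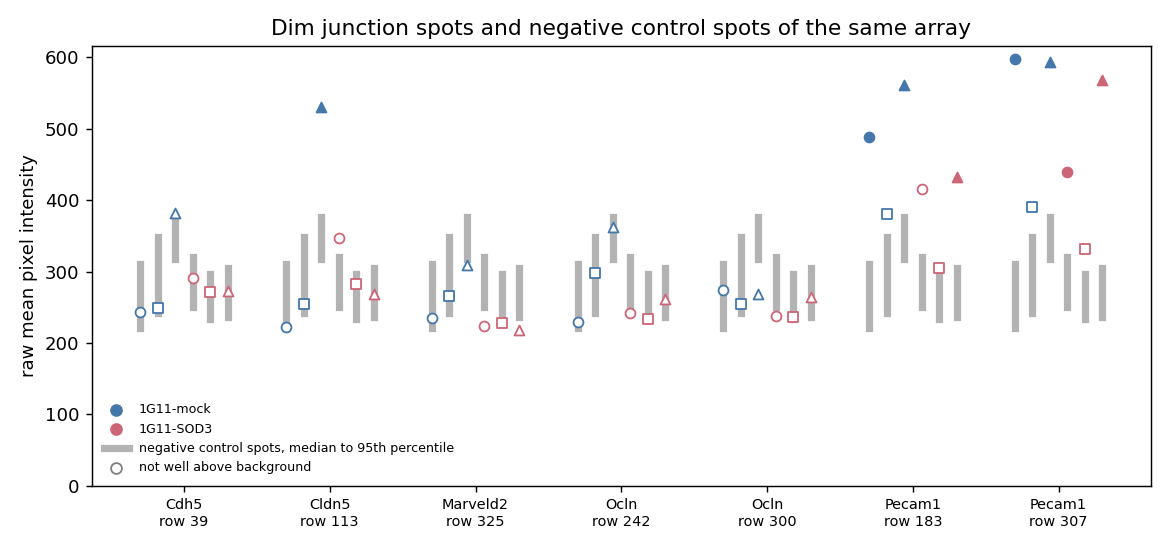
Unnormalized mean pixel intensity (y axis, from 0) of the spots that were not well above background on at least 1 array, by spot and its row on the array (x axis), with 6 arrays each. Grey bars run from the median to the 95th percentile of the negative control spots of that array. Both Pecam1 spots lie above the bars, and the Cdh5, Ocln and Marveld2 spots lie on or beside them.

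In the comparison of the lines, a probe passed when its change exceeded 2-fold with a Benjamini-Hochberg adjusted p (limma, all probes) under 0.05. None of the 11 junction probes passed, against 2.92% of all probes. An unadjusted p (limma) under 0.05 was reached by 5 of them, a count for which no share of all probes is given here. With the replicate number as a block, Tjp1 and Esam passed, and the share of all probes passing in that fit is not given either. Neither count can therefore be read as an excess among the junction probes. After the position adjustment described below, Cgn passed, lower in 1G11-SOD3, against 4.11% of all probes in either direction and 2.94% in that direction. The 3 values of one line did not overlap those of the other for 6 probes, against 20.6% of all probes. These 6 included all 5 that were well above background on every array, against 30.9% of such probes. The median log2 difference (1G11-SOD3 minus 1G11-mock) was -0.03 over the 11 probes and -0.03 over all probes.

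The share of probes past the threshold varied with place on the array. A block in the middle of the array holds 6606 of the spots, and 11.6% of the probes there passed the threshold (713 of 716 of them higher in 1G11-SOD3), against 1.82% elsewhere. Esam is the single junction gene with its spot there. A position adjustment, in which a smooth surface over row and column was taken off each array, reduced the spread among repeated copies of a probe (SD of the line difference) from 0.457 to 0.176. Its values are given beside the others, together with those of the spots within 12 rows and 6 columns of each junction spot. All 1G11-mock arrays lay in one row of the slide and all 1G11-SOD3 arrays in the other, so that line and slide row cannot be told apart. The overexpressed gene itself, Sod3, read 13.61, 12.66 and 9.86 in 1G11-mock and 16.37, 16.29 and 16.27 in 1G11-SOD3 (log2 difference 4.27, SE 0.703, limma adjusted p = 0.00791), and it too lies in the middle, its difference being 2.65 after position adjustment.

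Of the cadherins, Cdh2 alone was measurable, and it was higher in 1G11-SOD3 by about the same amount at both probes, without passing the threshold. Probe 1 read 13.83, 13.43 and 12.83 in 1G11-mock replicates 1, 2 and 3 and 14.07, 13.83 and 14.15 in 1G11-SOD3. The lines met at 1G11-mock replicate 1 and 1G11-SOD3 replicate 2 but did not cross. Means were 13.36 ± 0.50 and 14.02 ± 0.17 (SD, n = 3 each), and the difference was 0.66 on the log2 scale (SE 0.276, 95% interval 0.05 to 1.26, limma adjusted p = 0.302). Probe 2 read 14.16, 14.34 and 13.65 in 1G11-mock and 14.69, 14.56 and 14.81 in 1G11-SOD3. Here every 1G11-SOD3 array was above every 1G11-mock array. The difference was 0.64 (SE 0.245, 95% interval 0.10 to 1.18, limma adjusted p = 0.247).

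The annotation places both probes on chromosome 18. The 2 Cdh2 spots lie far apart on the array, at rows 88 and 30, and their surroundings hardly differed between the lines. The median difference of the surrounding spots was 0.03 around probe 1 (105 spots) and 0.10 around probe 2 (131 spots), and 95 and 121 of them, respectively, had a smaller difference than the Cdh2 spot. After position adjustment the Cdh2 differences were 0.62 (limma adjusted p = 0.161) and 0.54 (0.236). Both probes were lowest on 1G11-mock replicate 3, and without that array the differences were 0.39 and 0.44. The 2 probes detect nearby stretches of one transcript and are not independent replicates of the comparison.

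Cdh5, the defining cadherin of endothelium, read 6.94, 6.62 and 7.27 in 1G11-mock and 7.14, 7.0 and 6.92 in 1G11-SOD3. The lines overlapped fully. With every reading not well above background, no fold is given, and a difference in VE-cadherin RNA was not measurable with this probe. The study's methods state that 1G11 cells were checked by staining for the VE-cadherin protein, which is not a measurement of these arrays.

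Of the border proteins, Pecam1 was weakly measured and not distinguishable between the lines. It read 8.72, 8.02 and 8.78 in 1G11-mock and 8.18, 7.65 and 8.18 in 1G11-SOD3, replicate 2 being the lowest array of each line. The difference was -0.51 (SE 0.274, 95% interval -1.11 to 0.10, limma adjusted p = 0.446). The interval includes no change and a decrease slightly beyond 2-fold. Its 2 spots gave differences of -0.54 (row 183) and -0.47 (row 307), whereas their surroundings gave -0.41 and 0.18. After position adjustment the Pecam1 difference was -0.15 (limma adjusted p = 0.757).

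Esam, an adhesion molecule of endothelium and platelets, had its spot in the middle of the array and is therefore reported apart. It read 10.62, 9.86 and 8.59 in 1G11-mock and 11.28, 10.69 and 10.77 in 1G11-SOD3. The lines did not overlap, but the 1G11-mock arrays alone spanned 2 log2 units. Means were 9.69 ± 1.02 and 10.91 ± 0.32 (SD, n = 3 each), with a difference of 1.22 (SE 0.423, 95% interval 0.30 to 2.15, limma adjusted p = 0.188). With the replicate number as a block the adjusted p was 0.0473.

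The 104 spots around Esam had a larger median difference than Esam itself, 1.68 (quartiles 1.12 and 2.31), and 73 of them exceeded it. Their median deviations on the 1G11-mock arrays, -0.05, -0.59 and -1.90 for replicates 1, 2 and 3, fell in the same order as the Esam readings. After position adjustment the Esam difference was -0.46 (SE 0.230, 95% interval -0.97 to 0.05, limma adjusted p = 0.288), that is, of the opposite sign. No direction is therefore stated for Esam. Leaving out 1G11-mock replicate 3 gave 0.68 and leaving out 1G11-mock replicate 1 gave 1.70 (limma adjusted p = 0.0406), both without the adjustment.

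The tight junction membrane proteins could not be compared. Cldn5, the main claudin of brain endothelium, read 6.71, 6.85 and 8.52 in 1G11-mock and 7.71, 7.32 and 6.95 in 1G11-SOD3. Its single reading above background, on 1G11-mock replicate 3, was the highest, and with it the lines overlapped. The other 1G11-mock readings lay below every 1G11-SOD3 reading, but none of these was well above background. Occludin (Ocln) read between 6.67 and 7.30 with probe 1 and between 6.09 and 7.30 with probe 2. Tricellulin (Marveld2), which marks the corners where 3 cells meet, read between 6.33 and 6.95. The lines did not overlap at Ocln probe 1 (6.95, 7.30 and 7.21 against 6.84, 6.67 and 6.90), but they did at probe 2 (7.30, 6.90 and 6.09 against 6.68, 6.91 and 7.02), and readings at background have no order.

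The plaque proteins were both lower in 1G11-SOD3 on every array, and each passed the threshold in some fits only. Tjp1, the scaffold ZO-1 that binds claudins and occludin and ties them to actin, read 13.74, 13.53 and 13.84 in 1G11-mock and 12.41, 12.29 and 13.34 in 1G11-SOD3. The 1G11-mock arrays lay close together, and 1G11-SOD3 replicate 3 lay nearer to them than to the other 1G11-SOD3 arrays. Means were 13.70 ± 0.16 and 12.68 ± 0.58 (SD, n = 3 each), 2.03-fold lower in 1G11-SOD3 (log2 difference -1.02, SE 0.291, 95% interval -1.66 to -0.38, limma adjusted p = 0.100). With the replicate number as a block the adjusted p was 0.0437, which passes the threshold. Without 1G11-SOD3 replicate 3 the difference was -1.37 (limma adjusted p = 0.0302).

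The Tjp1 spot lies at row 52, outside the middle. Its 115 surrounding spots had a median difference of -0.25, and 6 of them had a lower difference than Tjp1. After position adjustment the Tjp1 difference was -0.83 (SE 0.322, 95% interval -1.54 to -0.11, limma adjusted p = 0.178).

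Cgn, which encodes cingulin and binds ZO-1 at the cytoplasmic face of tight junctions, read 10.60, 10.28 and 9.55 in 1G11-mock and 9.21, 9.31 and 9.33 in 1G11-SOD3. The 1G11-SOD3 arrays agreed closely, and the nearest 1G11-mock array was replicate 3. Means were 10.14 ± 0.54 and 9.28 ± 0.06 (SD, n = 3 each), 1.82-fold lower in 1G11-SOD3 (log2 difference -0.86, SE 0.278, 95% interval -1.47 to -0.25, limma adjusted p = 0.153). Without that array the difference was -1.17 (limma adjusted p = 0.0363). The surroundings of its spot, at row 80 and outside the middle, differed the other way. The 112 surrounding spots had a median difference of 0.34, and 1 of them had a lower difference than Cgn.

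After position adjustment the Cgn difference was -1.14 (SE 0.234, 95% interval -1.66 to -0.62, limma adjusted p = 0.0246; 0.0289 with the replicate block as well), which passes the threshold. On the lone probe for Cgn, this call was lost when 1G11-mock replicate 1 or any 1G11-SOD3 array was left out, with differences of -0.95 to -1.17, and kept without 1G11-mock replicates 2 (-1.24) and 3 (-1.29). The direction of the Cgn and Tjp1 differences was the same under every alternative run. The plot of differences sets both values beside the surroundings.

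**Figure D3:**
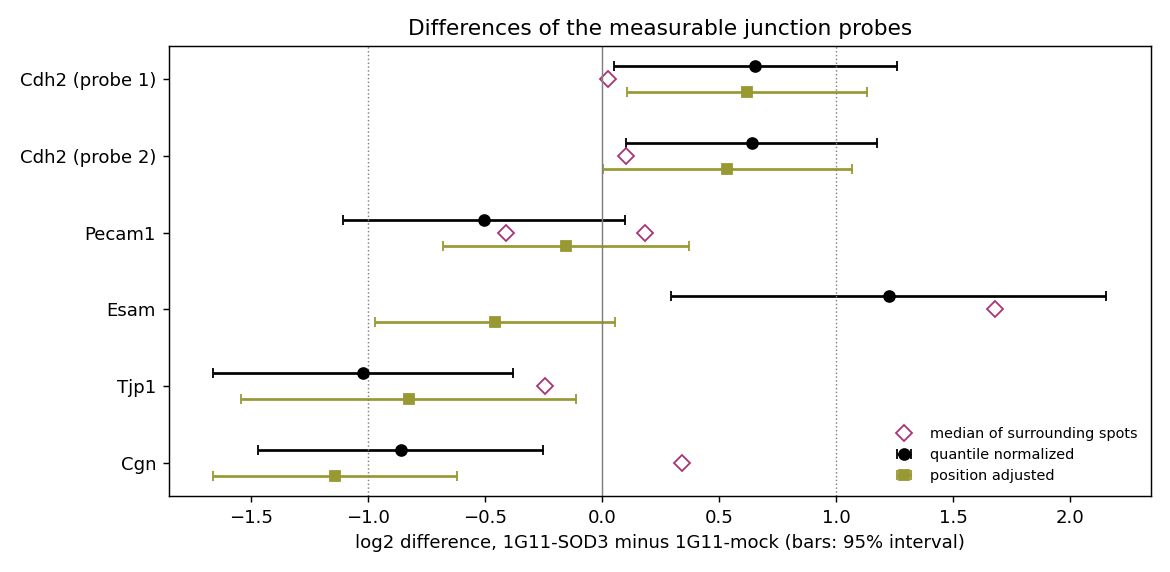
Log2 difference between the lines, 1G11-SOD3 minus 1G11-mock (x axis), of the probes that were well above background on at least 4 of the 6 arrays (y axis). Black points are the quantile-normalized values and olive squares the position-adjusted ones, with 95% intervals, open diamonds are the medians of the surrounding spots, and dotted lines mark 2-fold. Cgn and Tjp1 lie below 0 in both, Cdh2 above 0 in both, and Esam changes side.

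The other junction genes were taken from lists of 63 genes written for this purpose, with 1 probe per gene. All 63 were matched, and 38 were well above background on all arrays of a line. Of the 63, 1 was higher and 2 were lower in 1G11-SOD3 past the same threshold, which is 4.76% against 4.46% of all genes with a name (2.68% higher and 1.77% lower). After position adjustment 2 passed, against 4.39% of all genes. Their median log2 difference was 0.02. With the replicate number as a block 5 genes passed, the further ones being Gja1, a gap junction connexin (lower, limma adjusted p = 0.0451), and Pdcd10, of the CCM complex (3.28, 0.00784), whose spot is in the middle and whose position-adjusted difference was 0.76. No share of all genes is given for the block fit, so its count cannot be read as an excess among junction genes. By list, 0 rose and 1 fell of 15 adherens junction genes, 1 rose and 1 fell of 27 tight junction genes, and none of 4 gap junction, 5 desmosome-type, 4 leukocyte passage and 8 Rap1 and CCM regulator genes passed.

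**Figure D4:**
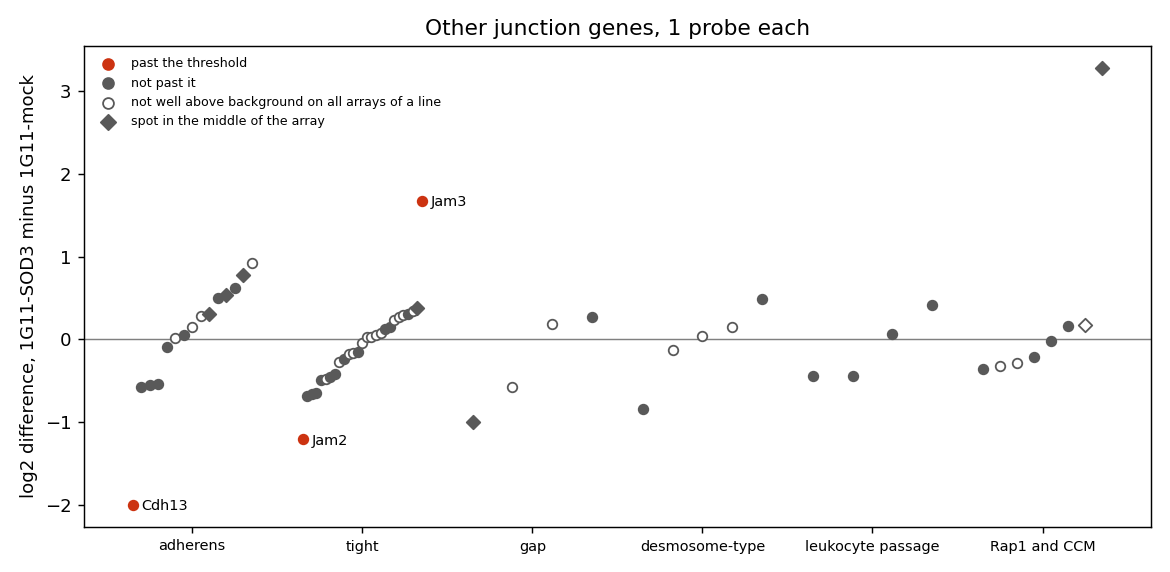
Log2 difference between the lines, 1G11-SOD3 minus 1G11-mock (y axis), of the 63 other junction genes, by list (x axis). Red marks genes past the threshold, open symbols genes that were not well above background on all arrays of either line, and diamonds probes with a spot in the middle of the array. Cdh13 and Jam2 lie below and Jam3 above, and the highest diamond, at 3.28, is Pdcd10.

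The genes listed as partners or relatives of the members mostly did not pass, where 4.46% of all genes with a name passed. At the adherens junction, the differences were 0.78 for β-catenin (Ctnnb1, limma adjusted p = 0.323, one of its 2 spots in the middle), -0.58 for α-catenin (Ctnna1, 0.402), 0.05 for p120-catenin (Ctnnd1, 0.958) and -0.54 for plakoglobin (Jup, 0.359). At the tight junction, they were -0.65 for JAM-A (F11r, limma adjusted p = 0.602), 0.08 for the cingulin relative Cgnl1 (0.922) and -0.68 for Marveld1 (0.211). For Marveld3, neither probe was well above background on an array. Ctnnb1, Ctnna1 and Ctnnd1 were well above background on all 6 arrays, and Jup on 5 of 6. Cgnl1 was so on 1 1G11-mock array and 2 1G11-SOD3 arrays only. After position adjustment the differences were 0.04 for Ctnnb1, -0.28 for Ctnna1, -0.10 for Ctnnd1 and -0.04 for Jup. For F11r, Cgnl1 and Marveld1 they were -0.33, 0.39 and -0.38.

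Ptprb, the phosphatase VE-PTP that binds VE-cadherin, did not rise above background in 1G11-mock with either of its probes. The probe outside the middle read 7.25, 6.76 and 7.15 in 1G11-mock and 8.19, 8.22 and 7.54 in 1G11-SOD3, of which 2 were above background (difference 0.93, limma adjusted p = 0.0957). For this probe the position-adjusted difference was 0.83 (limma adjusted p = 0.167). The probe in the middle was above background on all 3 1G11-SOD3 arrays and at least 4.14-fold higher there (limma adjusted p = 0.00285), but its position-adjusted difference was 0.99 (0.150). The Ptprb call thus rests on a spot in the middle of the array.

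Jam2 and Jam3, which encode JAM-B and JAM-C, surface proteins of the cell border known to bind each other, differed in opposite directions. Jam2 read 11.99, 11.93 and 12.18 in 1G11-mock and 10.95, 11.29 and 10.24 in 1G11-SOD3 with its brighter probe (difference -1.20, SE 0.280, limma adjusted p = 0.0430; -1.18 and 0.0719 after position adjustment). The call of this probe was also lost with no background correction, median pixel intensity, the processed signal, scaling to the 75th percentile, cyclic loess, a variance trend, the deposited table and the middle left out (adjusted p between 0.0503 and 0.0862). It was lost without any single array other than 1G11-SOD3 replicate 2, the difference then being between -0.92 and -1.27. Its second probe read 10.24, 10.21 and 10.39 against 8.61, 8.71 and 8.15 (difference -1.79, SE 0.233, limma adjusted p = 0.00237) and passed also after position adjustment (-1.29, 0.0233). At both Jam2 probes the lines were apart on every array.

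Jam3 read 8.57, 8.47 and 8.50 in 1G11-mock, with replicate 2 not well above background, and 9.84, 10.42 and 10.31 in 1G11-SOD3. The difference was 1.67 (SE 0.233, limma adjusted p = 0.00321), and 2.0 (0.00207) after position adjustment. Cdh13, which encodes T-cadherin, a cadherin held in the membrane by a lipid anchor, read 15.57, 15.34 and 14.72 in 1G11-mock and 13.15, 13.30 and 13.18 in 1G11-SOD3. The difference was -2.0 (SE 0.258, limma adjusted p = 0.00223), and -1.33 (0.0210) after position adjustment. Both kept their call without each single array, Jam3 after position adjustment as well, while Cdh13 after position adjustment lost it without 1G11-mock replicate 1 or 2 or 1G11-SOD3 replicate 2 or 3 (-1.18 to -1.30).

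**Figure D5:**
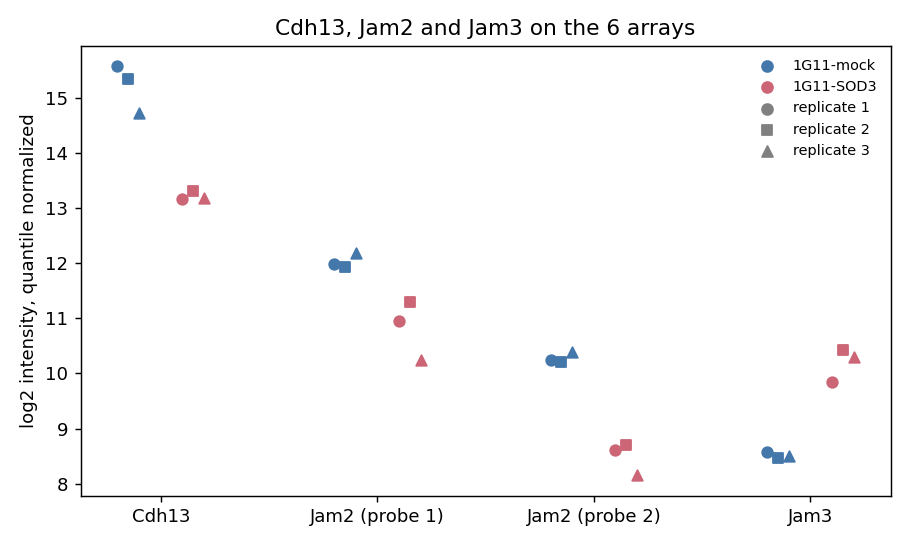
Normalized log2 intensity (y axis) of Cdh13, both Jam2 probes and Jam3 (x axis) on the 3 1G11-mock (blue) and 3 1G11-SOD3 (red) arrays, with a symbol per replicate. The lines are apart at all 4 probes, Cdh13 and Jam2 being lower and Jam3 higher in 1G11-SOD3.

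Over the 6 arrays, the genes of these lists whose pattern was most like that of Cdh2 (probe 2) were Vcl, Pvr and Amot, out of 29 well above background on all arrays and outside the middle. Likeness was the root mean square of the difference between the values of the 2 genes, each centered on its own mean, and came to 0.168, 0.263 and 0.299. Vcl, which encodes the actin linker vinculin, had means of 12.96 ± 0.19 in 1G11-mock and 13.58 ± 0.13 in 1G11-SOD3 (SD, n = 3 each, difference 0.62, limma adjusted p = 0.203). None of the 3 passed the threshold. Likeness was taken on values that hold the line difference, without the position adjustment, so a similar difference follows from the choice of these genes. After the position adjustment the differences were 0.28 for Vcl, -0.03 for Pvr and 0.27 for Amot, against 0.54 for Cdh2 (probe 2).

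Markers of cell types gave the setting for these values. Of all genes with a name, 4.46% passed the threshold (2.68% higher and 1.77% lower in 1G11-SOD3). Of 16 endothelial markers, 7 stayed at background on every array (Cdh5, Tek, Tie1, Emcn, Erg, Robo4 and Sox17) and 5 were above it on all 6, namely Kdr, Eng, Cd34, Vwf and Esam. Of all 16, Cd34 and Egfl7 passed the threshold as higher and Vwf as lower in 1G11-SOD3, Egfl7 no longer after position adjustment. With the replicate block 4 passed as higher, and with a single array left out 0 to 2 did (0 without 1G11-mock replicate 3 or 1G11-SOD3 replicate 1 or 2). The sum of all 16 intensities lay between 63891 and 84852 on the 1G11-mock arrays and between 112072 and 124541 on the 1G11-SOD3 arrays. Most of that sum was Cd34 (39774 to 57566 against 95097 to 103443), and the other 15 together were lower in 1G11-SOD3, at 23127 to 30721 against 16975 to 21097. Of 12 fibroblast and mural cell markers, 6 were above background on all arrays and 7 passed the threshold, all higher in 1G11-SOD3, also after position adjustment, including Acta2 (3.01) and Pdgfrb (2.39), and between 4 (without 1G11-mock replicate 2) and 6 passed with a single array left out. The sum of these 12 lay between 76336 and 76726 on the 1G11-mock arrays and between 143273 and 375643 on the 1G11-SOD3 arrays. The upper value is 1G11-SOD3 replicate 3, which stood apart through Dcn (137231 against 11722 and 12259) and Col3a1 (196939 against 102734 and 98503), and without it the sums were 143273 and 154970. Of these markers, Rgs5 and Postn were at background throughout. The part of these markers in the Cdh2, Tjp1, Cgn, Jam and Cdh13 differences was not tested. None of 12 epithelial markers (sums 68277 to 112896 and 45674 to 85319) or 8 leukocyte markers (21744 to 27538 and 21806 to 27287) passed. In lists this short, that is close to the share of all genes. Of the epithelial markers Epcam, Krt18, Cldn3, Cldn4, Elf3 and Prom2 had no probe above background on an array, and the same held for the leukocyte markers Ptprc and Laptm5. Krt19 was above background on all 6 arrays and made up most of the epithelial sum (66339 to 110726 in 1G11-mock, 43522 to 83222 in 1G11-SOD3). The leukocyte markers Cd14, Csf1r, Itgam and Cd3e were also above it on all 6. Most of the leukocyte sum was Itgam (15401 to 21580 in 1G11-mock, 17004 to 22300 in 1G11-SOD3). In such bulk samples, fewer cells of a type and less RNA per cell cannot be told apart.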

How the data were processed

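The 6 arrays comprised 3 for each line. For each array the authors deposited spot and background intensities from Agilent Feature Extraction 10.7.3.1, without normalization, and log2 values after their normexp correction (offset of 50) and quantile normalization, which served as an alternative. Here mean spot intensities were corrected with normexp (offset of 50, local background median), control and outlier spots were left out, values were quantile normalized on the log2 scale, and spots sharing a probe were averaged. The lines were compared with limma 3.58.1 in R 4.3.3 over 55681 probes. The number of arrays, 3 per line, limits the precision, as does signal over background. On the 1G11-mock arrays 34.2% to 36% of spots were well above background, and on the 1G11-SOD3 arrays 38.4% to 43.8%. None was saturated. The procedure was tested on simulated 8-fold changes and found 200 of 200 changed probes, with 29 others called. That test does not show how often smaller changes, such as those of the junction probes, would be found.

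The position surface used mgcv 1.9.3 (15 by 12 basis functions), and figures were drawn with matplotlib 3.10.9. Same-numbered arrays of the 2 lines deviated together over 16279 probes (r = 0.164, 0.103 and 0.156; different numbers -0.17 to 0.05; after position adjustment 0.08, 0.14 and 0.24, different numbers -0.21 to 0.17, so that 1G11-mock replicate 2 was then nearer to 1G11-SOD3 replicate 1) and lay in the same column of the slide, so a replicate block was fitted beside the unblocked comparison. Members and lists were chosen with earlier results of these data known. Named are all probes of the 9 genes, 12 genes listed as their partners or relatives, and every listed gene past the threshold with or without position adjustment. The 3 listed genes most like the brightest member are named as well, and other genes were named after their values were seen. A partner and a marker that the lists hold are not reported here. In the wider lists a gene was represented by its brightest probe outside the middle. The alternatives tried were other background corrections, intensity summaries, scalings, filters, variance models, the block, the deposited table, the middle left out, the position adjustment and each array left out, and, added later, the position adjustment with the block and with each array left out.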

Additional observations from a re-analysis of the deposited data

How the results depend on the processing

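With all arrays, the junction probes past the threshold, 0 of 11 as reported, numbered 1 with the processed signal (Cgn, -1.56), 1 with scaling to the 75th percentile (Esam, 1.29), 2 with the replicate block (Tjp1 and Esam), 1 with the position adjustment (Cgn) and 1 with both, a combination chosen after seeing the data. No junction probe passed under any other alternative with all arrays. Leaving out each array gave 0 to 1, also after position adjustment. The 3 other junction genes past the threshold became 7 with the processed signal, Jam2 no longer among them, and 5 with the replicate block, which added Gja1 and Pdcd10, 2 to 3 with an array left out, and 1 to 2 with an array left out after position adjustment. Over all probes, 1624 became 1057 with no background correction, 11082 with the processed signal, 2612 with scaling to the 75th percentile, 765 with the middle left out and 3023 with the position adjustment and block. It became 748 to 1795 with an array left out, and 827 to 2331 with the adjustment as well (993 without 1G11-SOD3 replicate 2). With median pixel intensity Jam2 was lost and Pdcd10 passed (3.43), which left the count at 3, and without background correction Jam2 was lost and 2 remained. The processed signal moved the median of all probes to -0.52. Under it Cdh3 (-1.08) and Marveld3 (-1.47), whose log2 differences as reported were 0.28 and 0.05, changed sign and passed, although neither was well above background on any array. After position adjustment they were 0.23 and -0.13. The cause of these changes was not tested. The replicate block changed no other call of a named gene. With the middle left out, Esam has no value. Dim signal limits Cdh5, Cldn5, Ocln and Marveld2, for which a change could not be measured, and the single slide leaves line and slide row inseparable.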
